A study of Mus musculus with 4 samples.

Results

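The 10 genes described here, Actn4, Inf2, Trpc6, Plce1, Myo1e, Anln, Arhgap24, Arhgdia, Myh9 and Rhpn1, encode actin-binding, motor and signaling proteins of the podocyte. They were chosen by symbol from the 52636 genes with a row in the count files, and all 10 were found. This choice, and that of the lists set beside them, was made with earlier results of these data known. All 10 also passed the filter on low counts that left 18172 genes to test, Trpc6 only through its control counts. The RNA came from mouse kidney cells isolated by FACS (fluorescence-activated sorting). The controls gave 2 libraries and the cells labelled Brg1-cKO gave 2. In common use that label means conditional deletion of Brg1, a chromatin remodeling ATPase whose gene is Smarca4. Each library was made from 3000 cells. The sorting marker, the strain, the age of the kidneys, the deleting Cre and whether the controls carry any of its alleles are not given in the sources used here. Separate animals are not named for the 2 libraries of a group, so each p-value measures only how these libraries vary, and that variation may be technical.

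Podocytes wrap the glomerular capillaries with interdigitating foot processes, whose shape is held by bundled actin under tension. Actn4 crosslinks the filaments, Inf2 nucleates and severs them, and Myh9 and Myo1e pull on them or tie them to membranes. Arhgap24 and Arhgdia act on the small GTPases that set the balance of protrusion and contraction, and Rhpn1 binds the GTPase RhoA. Plce1 and Trpc6 carry lipid and calcium signals to this cytoskeleton, and Anln is an actin-binding scaffold of the dividing cell. In humans, variants of ACTN4, INF2, TRPC6, PLCE1, MYO1E, ANLN, ARHGAP24 and ARHGDIA have been linked to inherited nephrotic syndrome or focal segmental glomerulosclerosis. Variants of MYH9 underlie a platelet disorder with kidney disease, and the role of Rhpn1 in podocytes is known from the mouse. Only some of these genes are enriched in podocytes. Actn4, Arhgdia and Myh9 are expressed in most cell types, and Anln in cycling cells.

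The controls held 35411905 and 37999342 gene counts, and the Brg1-cKO libraries 14645665 and 10922272. Of the uniquely aligned reads, 15.4% to 16.5% in control and 49.5% to 57.2% in Brg1-cKO fell on no counted gene. The biological coefficient of variation over all tested genes was 0.174 between the controls and 1.15 between the Brg1-cKO libraries. Xist was at 244 and 217 CPM in control and 836 and 1205 CPM in Brg1-cKO, and the Y-linked Ddx3y at 76.0 and 78.8 against 1.05 and 3.27 CPM, so the sex of the cells and the genotype cannot be told apart. CPM is the usual library-size scaling of counts, here over tested genes and with TMM factors. Smarca4, the targeted gene, had 898 and 937 CPM in control, against 760 and 691 CPM in Brg1-cKO. Its log2 fold change was -0.34 (SE 0.09, edgeR adjusted p = 0.167), and since its counts cover the whole gene they check the labels only in part.

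The genes fell into those that stood above control in both Brg1-cKO libraries, those that did not separate from control, and 1 that was not detected in Brg1-cKO. Arhgap24, Rhpn1, Plce1, Inf2 and Myo1e were higher in each Brg1-cKO library than in either control, and for the first 4 the ratios of the group means were 3.02, 3.29, 2.76 and 2.03. Actn4, Anln, Arhgdia and Myh9 overlapped between the groups, with ratios from 0.977 to 1.10. Trpc6 had 63 and 65 counts in control and 0 in each Brg1-cKO library. The log2 fold change was above 0 for 8 of the 10, against 47.0% of all genes tested, and below 0 for 2, against 53.0%. Over all genes tested, groups did not overlap and Brg1-cKO was higher in 17.5%, against 5 of the 10 genes here, and Brg1-cKO was lower without overlap in 34.5%, against 1 of 10. Among the 11233 genes at 10 CPM or more in the mean of either group, the group in which 9 of the 10 fall, these shares were 23.7% and 26.2%. Because the 10 genes were chosen with earlier results known, these counts and those below are no independent support for a difference.

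In edgeR's quasi-likelihood test 0 of the 10 genes passed an adjusted p of 0.05, as did 0 of all 18172 (0.0%). Their smallest adjusted p was 0.166. With an unadjusted p under 0.05 there were 5 of the 10, against 18.3% of all genes tested. Arhgap24, Plce1, Inf2 and Rhpn1 were on the higher side, where 5.44% of all genes had such a p, and Trpc6 on the lower side, where 12.9% did. Trpc6 passed the filter only through the group where it is high, so its p is no support for a difference. Among genes at 10 CPM or more, 7.66% had such a p on the higher side and 5.23% on the lower, or 12.9% in all, and 53.8% and 46.2% of them lay above and below 0. The median log2 fold change of the 10 was 0.36, also with Trpc6 set to its bound, and that of all tested genes was -0.06. An exact two-sided permutation test of 2 against 2 libraries cannot go below p = 0.333 for any gene.

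Other tools and single libraries moved these calls. DESeq2 called Arhgap24, Plce1, Inf2 and Rhpn1 higher at an adjusted p under 0.05, where 6.83% of all genes with an adjusted p were called higher, and on the filtered genes it called the same 4, where 4.23% were. Limma-voom called 0 of the 10, also with a variance for each group (1.8% and 0.737% of all genes), and had 5, Trpc6 among them, at an unadjusted p under 0.05 in each fit, where 19.8% and 18.5% of all genes had one. Without control replicate 1 the genes at an unadjusted p under 0.05 were Arhgap24 and Plce1, and without control replicate 2 Arhgap24 alone, where 1.53% and 1.54% of all genes had such a p, while 0 passed the adjusted threshold in either fit (0.0991% and 0.0715% of all genes). Without Brg1-cKO replicate 1 or 2 the single library left was assumed to vary like the controls. In each of these fits 8 of the 10 then passed the adjusted threshold, where 66.9% and 72.3% of all genes did, and the same number had an unadjusted p under 0.05, where 70.3% and 74.5% of all genes did.

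**Figure D1:**
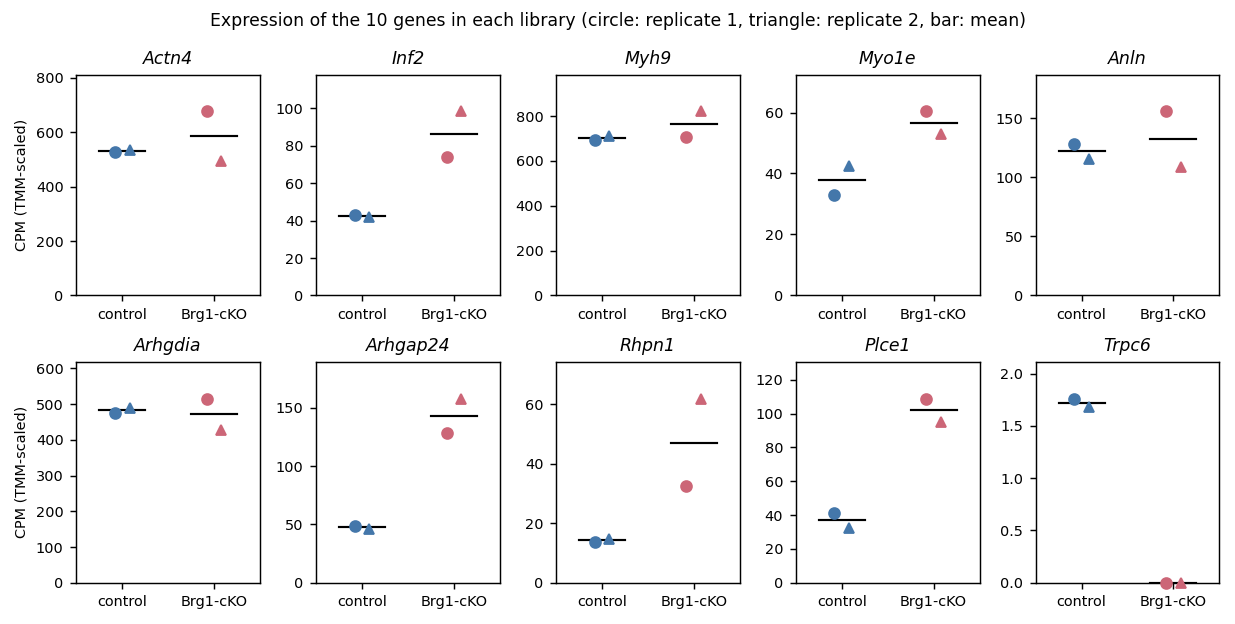
CPM of each of the 10 genes (vertical axis, from 0, own scale per gene) in the 2 control and the 2 Brg1-cKO libraries, with the group mean as a bar. Arhgap24, Rhpn1, Plce1, Inf2 and Myo1e lie above both controls in both Brg1-cKO libraries, Trpc6 lies at 0 in both, and the groups of the other 4 genes overlap.

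Scaled by annotated exon length, the 10 genes ranged widely in control. In CPM per kb of exon sequence, the level in control was 214 ± 4.59 for Arhgdia (SD, n = 2), 86.7 ± 0.630 for Actn4 and 54.2 ± 0.931 for Myh9. These 3 genes, the broadly expressed ones, stood far above the rest. Anln was at 13.4 ± 0.967 CPM per kb, Inf2 at 8.72 ± 0.114 and Myo1e at 6.63 ± 1.17. Arhgap24 was at 5.39 ± 0.177, Rhpn1 at 3.33 ± 0.156, Plce1 at 2.31 ± 0.379 and Trpc6 at 0.340 ± 0.0105 CPM per kb. No neighbours in this order overlapped between their control libraries. In Brg1-cKO the first 3 places were the same, and the genes from the fourth to the eighth place lay closer together in level and in another order. Inf2 was at 17.7 ± 3.56 CPM per kb there, Arhgap24 at 16.3 ± 2.38, Anln at 14.6 ± 3.69, Rhpn1 at 10.9 ± 4.85 and Myo1e at 9.93 ± 0.930, and from Inf2 to Rhpn1 the range of each gene's 2 libraries overlapped that of the next. Plce1, at 6.37 ± 0.606, stayed in the ninth place, below all of them in both libraries.

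**Figure D2:**
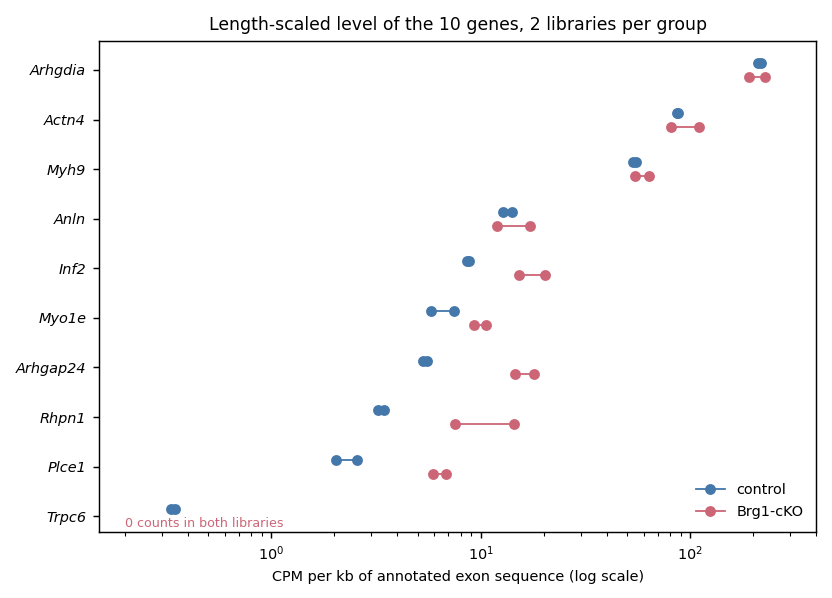
Level of the 10 genes in CPM per kb of annotated exon sequence (horizontal axis, log scale), ordered by control, with a point for each library and a line between the 2 libraries of a group. Arhgdia, Actn4 and Myh9 lead in both groups, and Inf2, Arhgap24, Anln, Rhpn1 and Myo1e lie close together in Brg1-cKO.

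Actn4 encodes alpha-actinin-4, the actin crosslinker of foot processes. It lies on the minus strand of chromosome 7 from 28893248 to 28962340 (mm10, with GENCODE annotation, as for all positions here). Actn4 was at 528 and 534 CPM in control and at 676 and 495 CPM in Brg1-cKO. The first Brg1-cKO library was above both controls and the second below both. Its log2 fold change was 0.14 (SE 0.18, edgeR unadjusted p = 0.477). It was -0.10 without Brg1-cKO replicate 1 and 0.35 without replicate 2, so its side of control differed between the Brg1-cKO libraries. The antisense neighbour Capn12 shares 316 bases of exon sequence with Actn4, 5.16% of its annotated exons. The libraries were strand-specific, but whether the counting used strand is not known here.

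Actn1, the other widely expressed alpha-actinin, was at 261 and 267 CPM in control and at 287 and 269.9 CPM in Brg1-cKO, a log2 fold change of 0.08 (SE 0.11). Per kb, Actn4 was at 1.83 and 1.81 times the level of Actn1 in control and at 2.12 and 1.66 times in Brg1-cKO, so the ratio also lay on both sides of control. Among the 16 tested crosslinkers and their binding partners, 6 were higher and 10 lower, 4 and 2 of them at an unadjusted p under 0.05. Synpo, the actin-bundling synaptopodin of podocytes, was at 50.2 and 56.7 CPM in control and at 149.6 and 235 CPM in Brg1-cKO, a log2 fold change of 1.85 (SE 0.29). Pdlim2 had a log2 fold change of 2.43 (SE 0.51), Pls1 2.30 (SE 0.65) and Pls3 0.57 (SE 0.17). Pls1 and Pls3 encode plastins, which bundle actin. The filamin Flna was at 1337 and 1360.0 CPM in control and at 967 and 972 CPM in Brg1-cKO, a log2 fold change of -0.48 (SE 0.07, edgeR unadjusted p = 0.00184). The fascin gene Fscn1 had -0.51 (SE 0.12). Pdlim5, Flnc, Pdlim7 and Actn3 had log2 fold changes of -0.14, -0.20, -0.46 and -0.90, all at an unadjusted p above 0.05.

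Inf2 encodes a formin that both elongates and severs actin filaments and binds mDia formins. The gene is on the plus strand of chromosome 12 from 112588784 to 112615557. Inf2 was at 42.8 and 42.1 CPM in control and at 73.9 and 98.5 CPM in Brg1-cKO. Both Brg1-cKO libraries were above both controls, and the fold between them was 1.33, against 1.02 between the controls. The log2 fold change was 1.02 (SE 0.25, edgeR unadjusted p = 0.0156, adjusted p = 0.166), and 16.1% of tested genes had a larger one. Of the 13 other formin genes tested, 7 were higher and 6 lower, 2 and 1 of them at an unadjusted p under 0.05. The 1 on the lower side was Grid2ip, at 0.950 and 0.830 CPM in control and 0 in Brg1-cKO. Grid2ip passed the filter only through control, so its p is no support for a difference. Fmn1, a formin of cell junctions, had a log2 fold change of 1.43 (SE 0.29). Daam1 and Daam2, formins of noncanonical Wnt signaling, had 0.95 (SE 0.25) and 0.73 (SE 0.28), and DAAM2 is itself a human nephrotic syndrome gene. Diaph1, the mDia formin to which Inf2 binds, was at 106 and 103 CPM in control and at 57.7 and 119 CPM in Brg1-cKO, on both sides of control. Diaph2, Diaph3 and Fmnl1 had log2 fold changes of 1.18, 0.49 and 0.61, and those of Fhod3, Fmnl3, Fhod1 and Fmnl2 ran from -0.05 to -0.44, all at an unadjusted p above 0.05.

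Myh9 encodes the heavy chain of nonmuscle myosin IIA, the motor of actomyosin contraction. Its position is on the minus strand of chromosome 15 from 77760587 to 77842175. Myh9 was at 692 and 709 CPM in control and at 708 and 821 CPM in Brg1-cKO. Its first Brg1-cKO library lay between the controls, and the log2 fold change was 0.12 (SE 0.11, edgeR unadjusted p = 0.309). The paralog Myh10, of nonmuscle myosin IIB, was at 1030.3 and 1030.6 CPM in control and at 832 and 767 CPM in Brg1-cKO, a log2 fold change of -0.37 (SE 0.08, edgeR unadjusted p = 0.0104). Per kb, Myh9 was at 0.543 and 0.557 times the level of Myh10 in control and at 0.688 and 0.865 times in Brg1-cKO, so the ratio of the 2 heavy chains was higher in both Brg1-cKO libraries. Of the light chains, Myl12b had a log2 fold change of -0.96 (SE 0.26) and Myl12a 0.34 (SE 0.25). These 2 genes are close in sequence, so their split is uncertain. Myl6 was at 189 and 184 CPM in control and at 211 and 177 CPM in Brg1-cKO, and Myl9 at 27.8 and 25.9 against 2.38 and 23.8 CPM.

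Myo1e encodes a single-headed class I myosin that links actin to the plasma membrane. It lies on the plus strand of chromosome 9 from 70207350 to 70399766. Myo1e was at 33.1 and 42.5 CPM in control and at 60.4 and 52.9 CPM in Brg1-cKO. Both Brg1-cKO libraries were above both controls, but the controls differed by 1.28-fold among themselves. The log2 fold change was 0.58 (SE 0.28, edgeR unadjusted p = 0.107, adjusted p = 0.405). Myo1d, another class I myosin, was at 24.9 and 23.8 CPM in control and at 106 and 95.9 CPM in Brg1-cKO, a log2 fold change of 2.05 (SE 0.22, edgeR unadjusted p = 7.29e-04). Myo1h had 2.09 (SE 1.09), and Myo1c had -0.08 (SE 0.24). Of the 7 other class I myosins tested, 2 were higher and 5 lower.

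Anln encodes anillin, which joins actin, myosin and septins in the contractile ring. The gene is on the minus strand of chromosome 9 from 22332012 to 22389188. Anln was at 128 and 116 CPM in control and at 156 and 108 CPM in Brg1-cKO. The Brg1-cKO libraries lay on both sides of control, and the log2 fold change was 0.12 (SE 0.24, edgeR unadjusted p = 0.657). It was -0.17 without Brg1-cKO replicate 1. The 17 cytokinesis and mitosis genes set beside it were mixed as well, with 10 higher, 7 lower and summed levels of 3772 and 3679 CPM in control and 3819 and 3710.4 CPM in Brg1-cKO. Prc1, of the central spindle, had a log2 fold change of 0.51 (SE 0.15, edgeR unadjusted p under 0.05), Kif20a had 0.60 (SE 0.34) and Ccnb1 0.47 (SE 0.32). Cdk1, Aurkb and Sept7 had -0.50 (SE 0.22), -0.50 (SE 0.21) and -0.32 (SE 0.15).

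Arhgap24 encodes FilGAP, a Rac GTPase activating protein that binds filamin A. Its position is on the plus strand of chromosome 5 from 102481391 to 102897937. Arhgap24 was at 48.5 and 46.3 CPM in control and at 128 and 158 CPM in Brg1-cKO. The lower of the Brg1-cKO values was more than double either control, and the fold between the Brg1-cKO libraries was 1.23. The log2 fold change was 1.59 (SE 0.21, edgeR unadjusted p = 0.00144, adjusted p = 0.166), and 10.6% of tested genes had a larger one. Its adjusted p ranged from 2.60e-10 with DESeq2 to 0.381 without a filter on low counts, over the alternatives that kept all 4 libraries. It was at 1.43 without Brg1-cKO replicate 2 and 1.73 without replicate 1. The filamin A gene Flna, given above, had a log2 fold change of -0.48. The other 31 GTPase activating proteins tested had a median log2 fold change of 0.04, with 18 higher and 13 lower, and 4 and 2 of them at an unadjusted p under 0.05. Arhgap29 was at 84.7 and 78.9 CPM in control and at 154 and 195 CPM in Brg1-cKO, a log2 fold change of 1.09 (SE 0.20). Arhgap44 was at 13.3 and 14.5 CPM in control and at 28.6 and 27.2 CPM in Brg1-cKO. Arhgap25 had 0.90 (SE 2.55), while Arhgap42, Arhgap31 and Arhgap27 had -1.05 (SE 0.65), -1.36 (SE 1.08) and -1.45 (SE 0.80).

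Arhgdia encodes RhoGDI-alpha, which holds small GTPases in the cytosol in their GDP-bound form. It lies on the minus strand of chromosome 11 from 120578104 to 120581624. Arhgdia was at 475 and 489.9 CPM in control and at 515 and 428 CPM in Brg1-cKO. The Brg1-cKO libraries lay on both sides of control, and the log2 fold change was -0.03 (SE 0.13, edgeR unadjusted p = 0.810). Its sign turned with RLE size factors, at 0.02, and did not with total counts, at -0.07. Arhgdib, a RhoGDI of blood cells, was at 12.6 and 9.02 CPM in control and at 4.61 and 16.9 CPM in Brg1-cKO. Of the 15 small GTPases of the cytoskeleton tested 5 were higher and 10 lower, with a median log2 fold change of -0.33. Cdc42, which drives filopodia and is needed in podocytes, was at 237 and 232 CPM in control and at 166 and 116 CPM in Brg1-cKO, a log2 fold change of -0.73 (SE 0.22, edgeR unadjusted p under 0.05). Rnd3 had -0.88 (SE 0.23) and Rhob -0.42 (SE 0.15), both at an unadjusted p under 0.05. Rac1 and Rhoa had -0.01 (SE 0.11) and 0.05 (SE 0.42). Rhoa was at 118 and 259 CPM in Brg1-cKO, on both sides of the controls at 180.3 and 184 CPM. Rnd1 had 3.69 (SE 1.45), and Rac3, Rhoq, Rhod, Rhoj, Rhog, Rhoc and Rhou had values from 0.35 to -0.53, all at an unadjusted p above 0.05.

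Rhpn1 encodes rhophilin-1, a scaffold that binds GTP-loaded RhoA. The gene is on the plus strand of chromosome 15 from 75704280 to 75715485. Rhpn1 was at 13.8 and 14.8 CPM in control and at 32.4 and 61.8 CPM in Brg1-cKO. Both Brg1-cKO libraries were above both controls, and they differed by 1.91-fold, the widest gap of the 9 genes with counts in Brg1-cKO. The log2 fold change was 1.72 (SE 0.46, edgeR unadjusted p = 0.0215, adjusted p = 0.174), and 9.83% of tested genes had a larger one. It was 1.17 without Brg1-cKO replicate 2 and 2.11 without replicate 1. The paralog Rhpn2 was at 12.6 and 17.1 CPM in control and at 32.7 and 2.90 CPM in Brg1-cKO, on both sides of control. Among the 12 kinases downstream of RhoA and their targets, 4 were higher and 8 lower. Rock1 had a log2 fold change of 0.48 (SE 0.18) and Rock2 -0.25 (SE 0.52). Cofilin, the filament severing protein that this pathway restrains, is encoded by Cfl1, which was at 875 and 855 CPM in control and at 602 and 731 CPM in Brg1-cKO, a log2 fold change of -0.38 (SE 0.12, edgeR unadjusted p = 0.0405). Cfl2, Mylk, Pak1, Limk2, Ppp1r12b, Limk1, Pak2, Mprip and Ppp1r12a had log2 fold changes from 0.33 to -0.32, all at an unadjusted p above 0.05.

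**Figure D3:**
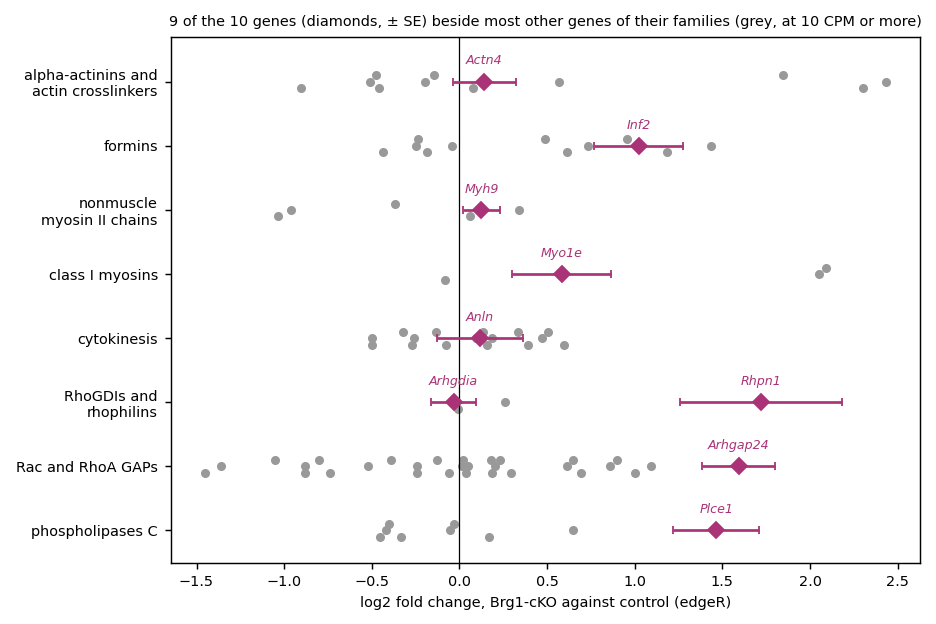
Log2 fold change of Brg1-cKO against control (horizontal axis) for 9 of the 10 genes (diamonds, with SE) and for most other genes of the same families or pathways at 10 CPM or more in the mean of either group (grey points). Arhgap24, at 1.59, and Plce1, at 1.46, lie beyond all grey points of their families, and Actn4, Myh9, Anln and Arhgdia lie near 0.

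Plce1 encodes phospholipase C epsilon, which cleaves a membrane phosphoinositide downstream of Ras and other small GTPases. Its position is on the plus strand of chromosome 19 from 38481109 to 38785030. Plce1 was at 41.2 and 32.6 CPM in control and at 109 and 95.1 CPM in Brg1-cKO. The lower Brg1-cKO value was more than double either control, and the Brg1-cKO libraries differed by 1.14-fold. The log2 fold change was 1.46 (SE 0.25, edgeR unadjusted p = 0.00381, adjusted p = 0.166), and 11.5% of tested genes had a larger one. The other 11 phospholipases C tested gave 4 higher and 7 lower, and 1, on the lower side, at an unadjusted p under 0.05. That gene was Plch2, at 3.02 and 2.52 CPM in control and 0 in Brg1-cKO. Like Trpc6, Plch2 passed the filter only through control, so its p is no support for a difference. Plcg1 was at 267 and 268 CPM in control and at 231 and 169 CPM in Brg1-cKO, a log2 fold change of -0.42 (SE 0.20). Plcb3 had -0.46 (SE 0.24), below both controls in both libraries. Plcb1, Plcd3, Plch1, Plcb4, Plcd1 and Plcg2 had values from 0.65 to -0.40, with groups that overlapped.

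Trpc6 encodes a diacylglycerol-gated cation channel of the foot process membrane. It lies on the plus strand of chromosome 9 from 8544142 to 8680741. Its 63 and 65 counts in control, or 1.76 and 1.69 CPM, stood against 0 in each Brg1-cKO library. At the control level those libraries would have held 24.7 and 18.4 counts. A count of 0 allows up to 3 counts, and with 3 counts over the group Trpc6 was at least 14.4-fold lower in Brg1-cKO. Of the 2743 tested genes with a control mean from 1 to 3 CPM, 723 (26.4%) had 0 counts in Brg1-cKO, so this was common at such levels. The bound covers counting error only. Of the 5 other channels of the family tested, 4 were higher and 1 lower. Trpc4 and Trpc5, under 10 CPM in both group means, were higher in Brg1-cKO without overlap. Trpc1 was at 6.74 CPM in both controls and at 1.40 and 20.2 CPM in Brg1-cKO, a far wider gap between the Brg1-cKO libraries than between the controls.

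The sequences just before the start sites are shown because base composition differs widely among these genes. RefSeq entries (GRCm38.p6) were found for 8 of the 10 genes, all but Arhgap24 and Rhpn1. The 250 bases before the start are printed 5′ to 3′ for Plce1 and Inf2, which stood higher in Brg1-cKO, for Trpc6, which had 0 counts there, and for Myh9, whose groups overlapped. Capitals mark the GC box GGGCGG on either strand.
Plce1: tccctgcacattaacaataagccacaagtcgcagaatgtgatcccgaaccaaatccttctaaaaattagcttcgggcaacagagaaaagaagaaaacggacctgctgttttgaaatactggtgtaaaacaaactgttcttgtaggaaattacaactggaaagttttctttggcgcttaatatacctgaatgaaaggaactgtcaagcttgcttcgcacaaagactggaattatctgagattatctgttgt
Inf2: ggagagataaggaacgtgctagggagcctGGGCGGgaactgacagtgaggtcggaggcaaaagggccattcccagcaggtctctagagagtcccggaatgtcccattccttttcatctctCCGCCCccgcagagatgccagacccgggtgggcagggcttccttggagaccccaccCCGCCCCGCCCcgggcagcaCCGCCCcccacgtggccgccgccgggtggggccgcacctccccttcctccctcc
Trpc6: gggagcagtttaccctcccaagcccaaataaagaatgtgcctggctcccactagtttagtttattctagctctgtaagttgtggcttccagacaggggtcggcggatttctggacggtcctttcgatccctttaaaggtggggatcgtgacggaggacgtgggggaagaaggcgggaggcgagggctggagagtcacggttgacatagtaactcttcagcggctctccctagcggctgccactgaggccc
Myh9: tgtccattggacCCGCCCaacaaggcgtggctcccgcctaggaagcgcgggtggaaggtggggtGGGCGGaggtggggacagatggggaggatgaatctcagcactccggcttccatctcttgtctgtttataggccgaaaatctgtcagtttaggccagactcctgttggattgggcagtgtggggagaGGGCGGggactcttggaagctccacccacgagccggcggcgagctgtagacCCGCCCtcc
The Plce1 stretch is chr19:38523947-38524196 on the plus strand, and its start lies 43088 bases inside the annotated gene, so it is 1 of several possible starts and the counts do not show which was used. The Inf2 stretch is chr12:112588517-112588766 on the plus strand, the first of 2 entries. The Trpc6 stretch is chr9:8543892-8544141 on the plus strand and the Myh9 stretch chr15:77842176-77842425 on the minus strand.

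GC content was 38.8% for Plce1, 68.4% for Inf2, 56.4% for Trpc6 and 62.4% for Myh9, against a median of 52.4% over the 32851 promoters in the table. The GC box was found 0 times before Plce1 and Trpc6, 5 times before Inf2 and 4 times before Myh9, and 32.7% of all promoters held it. Also searched on both strands were GCGTGGG, a core of the WT1 site, TCAGGTT, a core of a homeobox factor site of nephron progenitors, and TAATTA, a homeodomain site. None of these 3 was found in the 4 stretches, and 4.30%, 3.49% and 4.84% of all promoters held them. GCGTGGG was found once each before Actn4, Anln and the first entry of Arhgdia, genes whose groups overlapped. Myo1e, like Plce1 and Trpc6, held none of the searched motifs in this window. Any link between these motifs and the levels of the genes was not tested. Trpc6, Myo1e and Anln lie on chromosome 9, as does Smarca4 itself, from 21616169 to 21704230.

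The 10 genes were read beside marker lists of the cell types a kidney sort can hold, also chosen with earlier results of these data known. Fewer cells of a type and less RNA per cell cannot be told apart in these bulk libraries. The podocyte markers, none of which is among the 10, summed to 2247 and 2291 CPM in control and to 5309 and 5246 CPM in Brg1-cKO, and 17 of 18 were higher, 13 of them at an unadjusted p under 0.05. Nphs1, of the slit diaphragm, was at 21.8 and 22.1 CPM in control and at 152 and 198 CPM in Brg1-cKO, a log2 fold change of 2.99 (SE 0.23). Podxl, at 279 and 282 CPM in control and at 1755 and 1359 CPM in Brg1-cKO, made up a large part of the summed rise. The median log2 fold change of the podocyte markers was 1.27. Nes had 0.44, and Kirrel and Cd2ap, whose groups overlapped, had 0.34 and 0.24. The summed level of the podocyte markers was 2.34 and 2.31 times the control mean in the Brg1-cKO libraries. For Arhgap24 the same ratios were 2.70 and 3.33, for Plce1 2.95 and 2.57, for Rhpn1 2.26 and 4.32, for Inf2 1.74 and 2.32 and for Myo1e 1.60 and 1.40. Actn4, Anln, Arhgdia and Myh9 had ratios from 0.887 to 1.28, and Trpc6 was at 0. The early nephron markers also stood higher, with 9 of 11 on that side and sums of 1468 and 1475 CPM in control against 2654 and 2431 CPM in Brg1-cKO.

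Ureteric bud markers were lower in 8 of 9 and summed to 277 and 276 CPM in control and 109 and 81.6 CPM in Brg1-cKO, with Calb1, Wnt9b and Wnt7b at 0 counts there. Endothelial markers were lower in 10 of 10 (761 and 764 against 435 and 274 CPM), stromal markers in 9 of 10 (3322 and 3279 against 2083 and 1914 CPM), and immune markers in 9 of 10 (127 and 123 against 57.5 and 45.3 CPM). Proximal tubule markers (4 of 7 higher) summed to 108.6 and 106 CPM against 107 and 141 CPM, and mesangial and smooth muscle markers (3 of 8 higher) to 309.6 and 321 against 341 and 265 CPM, with Ren1 at 0 in Brg1-cKO. Of 7 erythroid markers 1 was tested. Cd14, Itgam and C1qa, of the immune list, had 0 counts in Brg1-cKO, and no podocyte marker did. Nephron progenitor markers (5 of 10 higher) summed to 1772 and 1751 CPM in control and 1918 and 1892 CPM in Brg1-cKO, with a median log2 fold change of 0.02. The part of these shifts, and of the share of reads outside genes, in the values of the 10 genes was not tested.

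**Figure D4:**
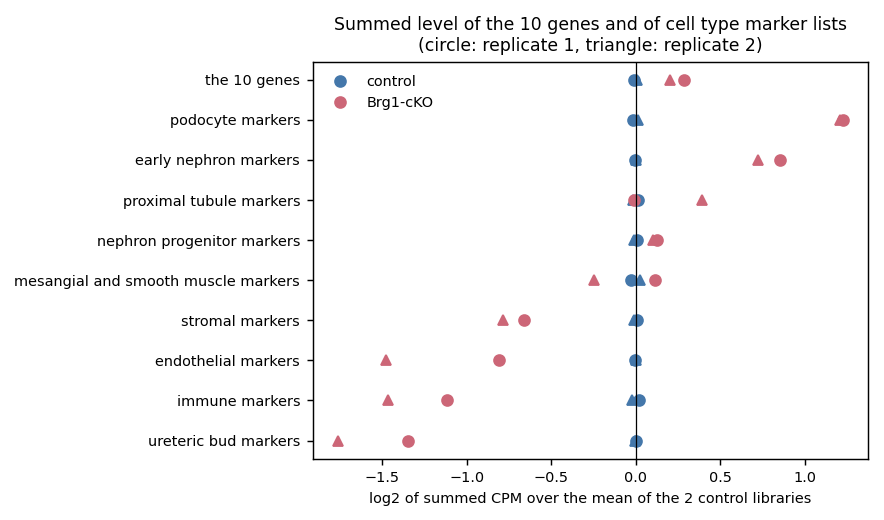
Log2 of the summed CPM of the 10 genes and of each cell type marker list over the mean of the control libraries (horizontal axis), with a point for each of the 4 libraries. Podocyte and early nephron markers stand above control in both Brg1-cKO libraries, and ureteric bud, immune, endothelial and stromal markers below. The sum of the 10 genes, which Myh9, Actn4 and Arhgdia dominate, is 1.22 and 1.15 times the control mean.

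Other inherited nephrotic syndrome genes gave 36 higher and 19 lower among 55 tested, 12 of them higher and 0 lower at an unadjusted p under 0.05, and 0 passed the adjusted threshold. Of the podocyte markers above, 8 are also in this list. Their median log2 fold change was 0.34. The largest were Col4a3 at 3.38 (SE 0.96), Col4a4 at 3.09 (SE 0.53) and Nphs1, and Col4a3 and Col4a4 encode collagen chains of the mature glomerular basement membrane. At the other end were Osgep at -0.70 (SE 0.40), Nup160 at -0.90 (SE 0.38) and Tprkb at -0.93 (SE 0.99). Osgep and Tprkb encode parts of the tRNA-modifying KEOPS complex, and Nup160 a nucleoporin.

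For the actins themselves and the genes that assemble them, no list had more than 1 gene at an unadjusted p under 0.05. That gene was Actc1, at 6.76 and 10.9 CPM in control and at 0.0699 and 0.0934 CPM in Brg1-cKO. Like Trpc6, it passed the filter only through control, so its p is no support for a difference. Of the 5 actins tested, 2 were higher and 3 lower, 2 of them, Actc1 and Acta1, lower without overlap and under 10 CPM in both group means. Actb was at 2463 and 2509 CPM in control and at 2508 and 2306 CPM in Brg1-cKO, a log2 fold change of -0.05 (SE 0.07), and Actg1 had 0.05 (SE 0.12). Acta2 had 0.06 (SE 0.49). Of 27 actin assembly genes, including the Arp2/3 subunits, 10 were higher and 17 lower, with 0 at an unadjusted p under 0.05 and a median log2 fold change of -0.10. The highest were Capza1 at 0.48 (SE 0.56), Arpc4 at 0.27 (SE 0.29) and Wasl at 0.21 (SE 0.24). The lowest were Wasf2 at -0.43 (SE 0.18), Tpm2 at -0.65 (SE 0.33) and Arpc1a at -0.69 (SE 0.51).

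**Figure D5:**
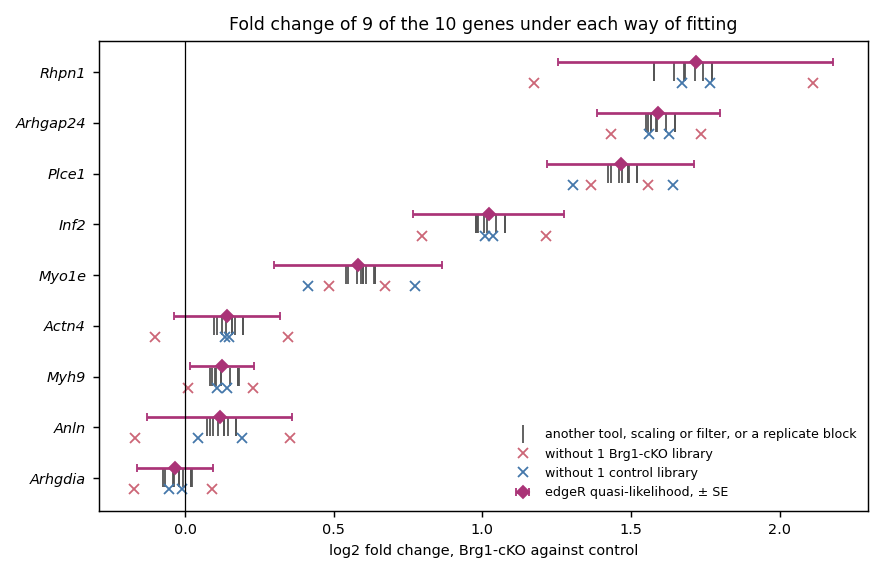
Log2 fold change (horizontal axis) of 9 of the 10 genes by edgeR's quasi-likelihood fit (diamonds, with SE), with another tool, scaling or filter or a replicate block (grey ticks), and with 1 library left out (crosses). Rhpn1, Arhgap24, Plce1, Inf2, Myo1e and Myh9 stay above 0 in each of these fits. Of these, all but Myh9 lie above both controls in both Brg1-cKO libraries. Leaving out 1 library could turn the sign of those genes only through scaling, so their crosses are no test of it. Actn4, Anln and Arhgdia cross 0 when a Brg1-cKO library is left out, and Arhgdia also with either DESeq2 fit and with RLE size factors.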

How the data were processed

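The authors deposited counts of reads per gene, whole numbers with 1 file per library. Per the labels' protocols, mRNA from 3000 sorted cells was made into strand-specific, randomly primed libraries and read as 75 bp single ends. Per the submitters' processing notes, mm10, TopHat and DESeq2 were used. How reads were counted on genes, with or without strand and on which annotation, is not given in the sources used here. Reads given to no gene, 31.8% to 72.1% of a library, were left out.

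Of 52636 identifiers 52403 matched a symbol in GENCODE M21. The comparison was fitted over all genes with edgeR 4.0.16 in R 4.3.3 (TMM, expression filter with a minimum count of 10, robust quasi-likelihood F test, group as its only term, Benjamini-Hochberg adjustment at 0.05). Standard errors are the log2 fold change over the root of F. The functions were tested on simulated data. Levels per kb use the union of annotated exons. The alternatives were DESeq2 1.42.0, limma 3.58.1 (voom, also with a variance per group), other scalings and filters, a replicate block, and leaving out each library. DESeq2 on the filtered genes was added after seeing the data.

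The members and lists were chosen with earlier results of these data known. All 10 genes and Smarca4 are named whatever their p. Of family lists the genes at 10 CPM or more in either group mean are named, and of lists of over 16 genes the 3 highest and 3 lowest. Some genes under this rule are not reported here, and others were named after their values were seen. A count of 0 allows 3 counts. The reads carry no molecular identifiers, so floors and 95% Wilson intervals cover counting error only.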

Additional observations from a re-analysis of the deposited data

Results flagged for a closer look

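The reads that aligned uniquely but were given to no counted feature lie outside the gene counts used for the comparison. They made up 49.5% and 57.2% of uniquely aligned reads in Brg1-cKO replicates 1 and 2 (95% Wilson intervals 49.5% to 49.5% and 57.2% to 57.3%), above the 16.5% and 15.4% of the controls. They can lie in introns or outside annotated genes, and their part in the values of the 10 genes was not tested.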

How the results depend on the processing

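Under the 10 alternatives that kept all 4 libraries, the 10 genes gave 99 log2 fold changes, 3 of which turned in sign, all of Arhgdia (0.0224 with DESeq2, 0.0214 with DESeq2 on the filtered genes and 0.0212 with RLE size factors). Trpc6 missed the filter of 10 CPM in 2 libraries and has no value there. The count of all genes past the adjusted threshold, 0 as reported, was 2038 with DESeq2, 987 with DESeq2 on the filtered genes, 327 with limma-voom, 134 with limma-voom where each group had its own variance, and 156 with the replicate block. Leaving out 1 library gave 13 to 13134. For the 10 genes the count, 0 as reported, was 4 with either DESeq2 fit, 1 with the replicate block (Arhgap24) and 0 to 8 with 1 library left out. The 5 genes at an unadjusted p under 0.05 became 1 to 8 with 1 library left out, where 1.53% to 1.54% of all genes had such a p without a control and 70.3% to 74.5% without a Brg1-cKO library. Without Brg1-cKO replicate 1, Actn4 turned to -0.10 and Anln to -0.17, and without replicate 2 Arhgdia turned to 0.0912. With 1 library left out, Actn4 ran from -0.10 to 0.35, Anln from -0.17 to 0.35 and Arhgdia from -0.17 to 0.09. For Smarca4, which passed in no fit with all 4 libraries, the value ran from -0.41 to -0.27 with 1 library left out. The replicate numbers share only a number, since same-numbered libraries deviated with r = -0.02 from their group means, and that the block changes a call says nothing of the size of an effect. RLE size factors moved the median of all genes by 0.05 and total counts by -0.04. Depth limits Trpc6, the 1 gene under 10 CPM. The wide spread between the Brg1-cKO libraries limits all 10 genes, and the cause of that spread was not tested.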
